A study of Arabidopsis thaliana with 24 samples.

Results

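Auxin induces transcription within hours of treatment, and the axr3-1 mutation weakens that induction. The 49 genes described here are Arabidopsis thaliana loci known in the array annotation by a locus code alone, whose transcripts rose with auxin in wild-type seedlings but much less, or not at all, in axr3-1. They were chosen from measured values, on an array with 22746 probe sets, among which those assigned to 1 gene name 13350 genes. A probe set had to name 1 gene and carry no symbol other than its locus code, which left 11933 probe sets. Its mean log2 level had to be at least 1 higher in treated Col than in control Col, which left 81, and the Col arrays of the 2 treatments could not overlap, which left 80. Of these 80, the 49 members (61.2%) had a treated minus control difference in axr3-1 under 50% of that in Col, and the other 31 are called the retained loci here. Each member is a different locus with 1 probe set, and all 49 have a protein-coding entry in RefSeq, where again only the locus code is given as the symbol. No role is given to them here.

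Auxin acts by removing repressors. Aux/IAA proteins bind auxin response factors (ARFs) at promoters and keep auxin-responsive genes low, and auxin joins them to TIR1/AFB receptors, which leads to their degradation. axr3-1 is a gain-of-function allele of the Aux/IAA gene IAA17 that makes the repressor more stable, whereas iaa17-6 is an insertion allele of the same gene and iaa5-1 iaa6-1 iaa19-1 carries insertions in 3 other Aux/IAA genes. The members are therefore described first in axr3-1 and Col, whose arrays chose them, and then in iaa17-6 and the triple mutant, whose arrays did not.

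RNA came from whole seedlings grown for 7 days in the light in liquid medium with sucrose. The seedlings were then given 5 µM indole-3-acetic acid (IAA, the main natural auxin) or ethanol, its solvent, for 2 h at 24 °C. There were 3 arrays in each of 8 groups: axr3-1 with IAA and control, iaa17-6 with IAA and control, the triple mutant iaa5-1 iaa6-1 iaa19-1 (iaa5 iaa6 iaa19 from here on) with IAA and control, and Col, the Columbia wild type, with IAA and control. The labels do not say whether replicates were separate cultures or how many seedlings were pooled, so p-values reflect how far these particular samples varied, and that variation may be technical. Fewer cells of a type and less RNA per cell cannot be told apart in such bulk samples. Levels are log2 values with a floor of 5.64, which holds between 44.4% and 46% of any array's values. Of the 22746 probe sets, 14192 were above the floor on at least 1 array and were tested, and all 49 members were among them, as the rule requires. After removal of group means, 6 arrays stood apart along the axis that held 47.4% of the remaining variance: axr3-1 IAA replicate 3, iaa17-6 IAA and control replicate 3, iaa5 iaa6 iaa19 IAA and control replicate 1, and Col control replicate 3. Within iaa17-6 and within the triple mutant these arrays fall equally on both treatments. In axr3-1 and Col they do not.

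The values that chose the members are given first as a description. The Col difference had a median of 1.37 over the members and ran to 3.30, and the axr3-1 difference had a median of 0.32, between -0.17 and 1.27. The axr3-1 difference was at the median 24.3% of that in Col, ran from -10.9% to 49.6%, and lay under 25% in 27 of the 49 loci. On single arrays the median level of the members was 6.78 to 6.89 with IAA in axr3-1, against 6.23 to 6.24 in axr3-1 control. In Col it was 7.91 to 7.95 with IAA, against 6.11 to 6.21 in control. The members just inside the limit on the Col difference were AT1G34750 (1.006), AT3G09760 (1.01) and AT3G24240 (1.017), and just outside it lay AT3G14560 (0.999), AT5G64100 (0.997) and AT2G41730 (0.995). Just inside the limit on the share lay AT3G50340 (49.6%), AT2G28690 (48.3%) and AT1G60010 (47.5%), and just outside it AT2G34140 and AT4G38410 (50.9% each) and AT2G39980 (51.6%).

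**Figure D1:**
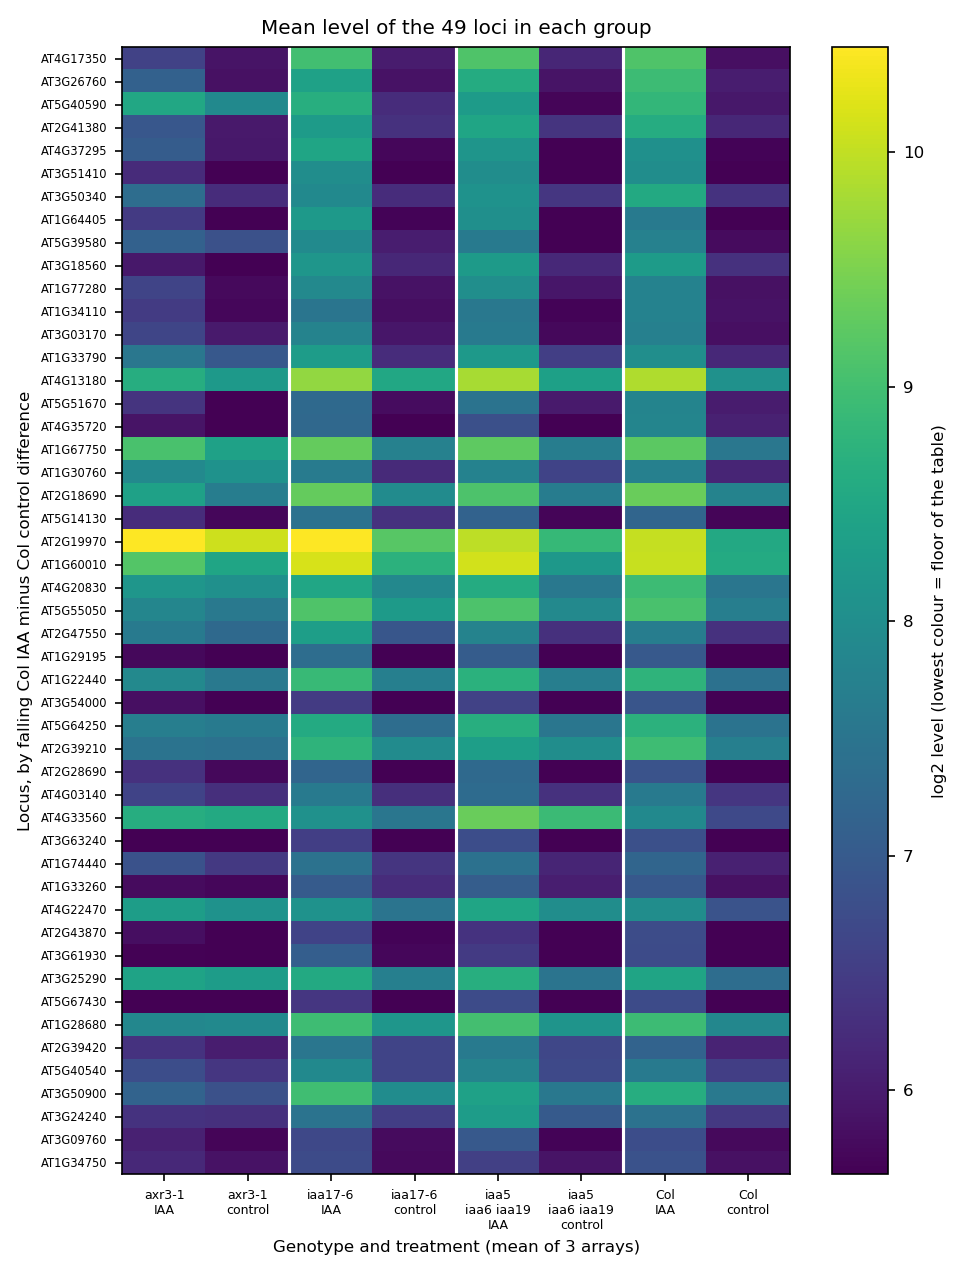
Mean log2 level (colour, 3 arrays a group, darkest at the floor of 5.64) of the 49 loci, 1 row each, in the 8 groups across, with the loci by falling Col difference. The axr3-1 IAA column is darker than the other IAA columns for most loci, while AT4G33560 and AT1G30760 are about as bright in axr3-1 with IAA (8.64 and 7.91) as in axr3-1 control (8.56 and 8.09).

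AT4G17350 had the largest Col difference. Its level was 6.54, 6.48 and 6.72 on the axr3-1 IAA arrays, against 5.87, 6.14 and 5.70 on the axr3-1 control arrays. In Col it was 9.14, 9.14 and 9.09 with IAA, against 5.64, 5.88 and 5.95 in control. The axr3-1 arrays of the 2 treatments did not overlap, and the axr3-1 difference of 0.68 was 20.5% of the Col difference of 3.30. With IAA every axr3-1 array lay far below every Col array, while the controls of the 2 genotypes were close together.

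AT3G51410 showed the same contrast from the floor. It read 6.25, 6.12 and 6.33 with IAA in axr3-1, with all 3 axr3-1 control arrays at the floor. In Col it read 8.01, 7.99 and 8.02 with IAA, again with all 3 control arrays at the floor, a difference of at least 5.14-fold. A weak induction in axr3-1 was thus visible, of at least 1.50-fold. For 2 members, AT5G67430 and AT3G63240, all 6 axr3-1 arrays lay at the floor, so that no axr3-1 difference can be given for them. AT5G67430 read 6.68, 6.75 and 6.75 in treated Col, and AT3G63240 read 6.80, 6.78 and 6.88, with every Col control array of both at the floor.

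AT3G18560 was lower in axr3-1 in both treatments. It read 5.75, 5.95 and 6.17 with IAA in axr3-1, against the floor on all 3 axr3-1 control arrays. Col read 8.13, 8.43 and 8.29 with IAA, against 6.49, 6.09 and 6.40 in control. The axr3-1 arrays lay below the Col arrays of the same treatment with no overlap, by 2.33 with IAA and by at least 0.68 in control. AT3G50900 was of the same kind, with axr3-1 levels of 7.27, 6.99 and 7.29 with IAA and 6.91, 6.95 and 6.66 in control, against Col levels of 8.55, 8.70 and 8.65 with IAA and 7.59, 7.61 and 7.57 in control. With AT5G51670 these were the 3 members whose axr3-1 control arrays all lay below the Col control arrays (over all probe sets tested the percentage in this direction was 9.63).

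Several members had an axr3-1 difference near 0 without being at the floor. AT1G28680 read 7.71, 8.04 and 7.86 with IAA in axr3-1, against 7.98, 8.00 and 7.83 in axr3-1 control, so the treatments overlapped. Col read 9.02, 9.19 and 8.58 with IAA, against 7.86, 8.07 and 7.64 in control. AT5G64250 was similar, at 7.58, 7.69 and 7.78 with IAA in axr3-1, against 7.68, 7.42 and 7.69 in axr3-1 control. Over all members, the axr3-1 IAA arrays lay wholly above the axr3-1 control arrays in 25 loci and wholly below in 0, where the percentages over all probe sets tested were 7.48 and 8.15. As the rule used these arrays, nothing is read from that count beyond which treated arrays overlapped their controls. An overlap does not show that a rise was absent: AT1G67750 overlapped with an axr3-1 difference of 0.66.

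With IAA, all 3 axr3-1 arrays lay below all 3 Col arrays in 39 of the 49 members (12.2% of all probe sets tested), and the mean was lower by at least 1 in 27. In control, by contrast, 31 members differed between axr3-1 and Col by under 0.25 on the mean, as did 9914 of the 14192 probe sets tested. Closeness in control is therefore not particular to the members. In 7 members all Col and axr3-1 control arrays read the floor, so that no control difference can be given for them. This first pattern, a Col-like control and a low level with IAA, was the commoner one. The rule used all of these arrays, so this too is only a description. The second was a raised control. In 12 members all 3 axr3-1 control arrays lay above all 3 Col control arrays (11.6% of all probe sets tested in this direction, against 24.5% of the members). These 12 were set apart after their values were seen, and are described without a test.

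AT5G40590 had the largest control difference of the 12. It read 8.27, 8.54 and 8.75 with IAA in axr3-1, against 8.07, 8.11 and 7.58 in axr3-1 control. Col read 8.96, 9.09 and 8.40 with IAA, against 6.28, 5.80 and 5.76 in control. The axr3-1 control was thus 1.97 above that of Col, though all its arrays lay below those of Col with IAA. The treated axr3-1 arrays all lay above the axr3-1 control arrays, and the treated arrays of the 2 genotypes overlapped. For this locus the small axr3-1 difference came with a level that was high in both treatments, not low.

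AT1G30760 had no higher level with IAA than without it in axr3-1, at 8.23, 8.26 and 7.25 with IAA against 8.21, 8.36 and 7.70 in control. Col read 7.77, 7.86 and 7.58 with IAA, against 6.35, 6.42 and 5.64 in control. AT2G19970, the brightest member, read 10.25, 10.71 and 10.36 with IAA and 10.20, 10.47 and 9.56 in control in axr3-1, and it was the 1 member whose treated axr3-1 arrays all lay above those of Col (10.17, 9.99 and 9.94). The others with a raised control were AT4G33560, AT4G22470, AT5G39580, AT2G47550, AT3G25290, AT1G67750, AT1G33790, AT4G20830 and AT1G74440.

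Over these 12 loci the median level was 8.24 with IAA and 8.07 in control in axr3-1, against 8.00 with IAA and 6.52 in control in Col. The axr3-1 minus Col difference had a median of 1.00 in control (0.34 to 1.97) and of -0.11 with IAA (-0.77 to 0.72). Over the other 37 the medians in axr3-1 were 6.48 with IAA and 5.88 in control, against 7.78 with IAA and 6.01 in control in Col, and the axr3-1 minus Col difference was -0.05 in control (-0.75 to 0.27) and -1.10 with IAA (-2.54 to -0.53). The 37 all had a lower level in treated axr3-1 than in treated Col. The rule fixed this in advance for loci with control differences of at most 0.27, so nothing is read from it. In 10 of the 12 the excess over Col in control was larger than any shortfall with IAA. The other 2, AT4G20830 (0.54 in control, -0.77 with IAA) and AT1G74440 (0.34 in control, -0.36 with IAA), were also lower in treated axr3-1, with no overlap of the treated arrays.

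**Figure D2:**
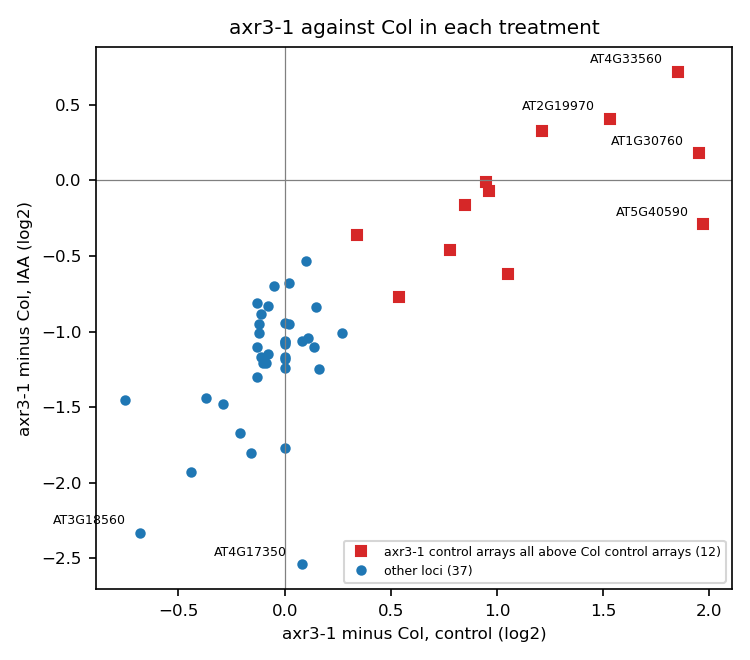
Difference between axr3-1 and Col (log2, means of 3 arrays) with IAA on the vertical axis and in control on the horizontal axis, 1 point a locus. The 12 loci whose axr3-1 control arrays all lay above the Col control arrays (squares) reach 1.97 in control and lie between -0.77 and 0.72 with IAA, and the other 37 (circles) cluster near 0 in control and between -2.54 and -0.53 with IAA.

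The arrays of iaa17-6 and iaa5 iaa6 iaa19 took no part in choosing the members, and their IAA responses were tested with limma over all 14192 probe sets. In iaa17-6, 44 of the 49 members (89.8%) rose with IAA and 0 fell at an adjusted p under 0.05, where 4.41% of all probe sets tested rose and 3.31% fell. In iaa5 iaa6 iaa19, 45 of 49 (91.8%) rose and 0 fell, where 3.68% of all probe sets rose and 3.59% fell. With the iaa17-6 arrays fitted alone 26 members rose, and with the triple-mutant arrays alone 36. Fewer degrees of freedom remain in both of these fits, and the cause of the lower counts was not tested. At least 1 on the log2 scale was reached by 33 members in iaa17-6 (1.73% of all probe sets) and by 38 in the triple mutant (1.61%). The median response was 1.32 in iaa17-6 (0.54 to 2.98) and 1.28 in iaa5 iaa6 iaa19 (0.34 to 2.98), against medians of 0 and -0.01 over all probe sets tested. The members were chosen for a rise in Col, so these counts say how far that rise is found in mutants outside the choice, not how these loci compare with others that respond to auxin.

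The 10 members with the largest Col difference all rose in both mutants. AT4G17350 read 9.0, 8.91 and 9.07 with IAA in iaa17-6, against 6.06, 5.97 and 5.99 in control, a rise of 2.98 (SE 0.13, 7.91-fold, limma adjusted p = 5.26e-12). In iaa5 iaa6 iaa19 it read 9.39, 8.99 and 9.0 with IAA, against 6.23, 6.20 and 6.02 in control, a rise of 2.98 (SE 0.13, adjusted p = 5.50e-12). Treated and control arrays were thus about 3 log2 units apart in both mutants and did not overlap.

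AT3G51410 had the lowest adjusted p of the members in both. It read 7.91, 7.86 and 8.19 with IAA in iaa17-6 and 8.22, 7.87 and 7.88 in iaa5 iaa6 iaa19, with all control arrays of both at the floor. The rise was at least 5.07-fold in each mutant (adjusted p = 3.31e-12 in iaa17-6 and 3.41e-12 in the triple mutant by limma). Its controls at the floor have no spread, which lowers these p-values. AT3G18560 read 8.27, 8.07 and 8.12 with IAA in iaa17-6, against 6.38, 5.92 and 6.24 in control, and 8.44, 8.16 and 8.19 with IAA in the triple mutant, against 6.32, 6.05 and 6.19 in control. Its low control level in axr3-1 was not seen in the other mutants.

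AT4G37295 and AT1G64405 showed some of the largest responses in the mutants. AT4G37295 read 8.73, 8.11 and 8.54 with IAA in iaa17-6, against 5.64, 5.64 and 5.89 in control, a rise of 2.74 (SE 0.14). In Col its difference was 2.37, and in axr3-1 1.08. AT1G64405 rose by 2.54 in iaa17-6 (SE 0.16) and by 2.40 in iaa5 iaa6 iaa19 (at least 5.28-fold), beside a Col difference of 1.98. The mutant and Col responses stand side by side here without a test, since the Col values were selected to be high. Over the members the response was at the median 89.7% of that of Col in iaa17-6 and 91.6% in the triple mutant, and it exceeded that of Col in 11 and 14 members.

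The 5 members with the smallest axr3-1 share of the Col difference, as computed from the floored values, all passed the threshold in both mutants. For AT5G67430 and AT3G63240 that share, like the axr3-1 difference, is not a measured one. AT5G67430, at the floor on every axr3-1 array, read 6.63, 6.44 and 6.13 with IAA in iaa17-6 and 6.90, 6.66 and 6.62 in iaa5 iaa6 iaa19, with all control arrays at the floor. The rises were at least 1.69-fold (adjusted p = 4.40e-06) and at least 2.12-fold (adjusted p = 3.39e-08) by limma. AT3G63240 rose at least 1.85-fold in iaa17-6 (adjusted p = 0.00224) and at least 2.18-fold in the triple mutant (adjusted p = 2.00e-04). Groups at the floor have no spread, which lowers the SEs and p-values of these 2 loci. With only the groups of the contrast fitted by limma, AT5G67430 missed the threshold in iaa17-6 (adjusted p = 0.0609). In that fit AT3G63240 missed it in iaa17-6 (0.218) and in the triple mutant (0.0526). AT3G61930, at 5.70, 5.64 and 5.67 in treated axr3-1, reached 7.25, 6.55 and 7.45 with IAA in iaa17-6 and 6.81, 6.30 and 6.28 in iaa5 iaa6 iaa19. AT1G28680 and AT1G30760, whose axr3-1 differences were below 0, rose by 0.79 and 1.44 in iaa17-6 and by 0.89 and 1.17 in iaa5 iaa6 iaa19. The call of AT1G30760 in iaa5 iaa6 iaa19 (adjusted p = 0.0464 by limma) was the least stable of these, and held in 9 of 16 alternatives (adjusted p up to 0.226).

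**Figure D3:**
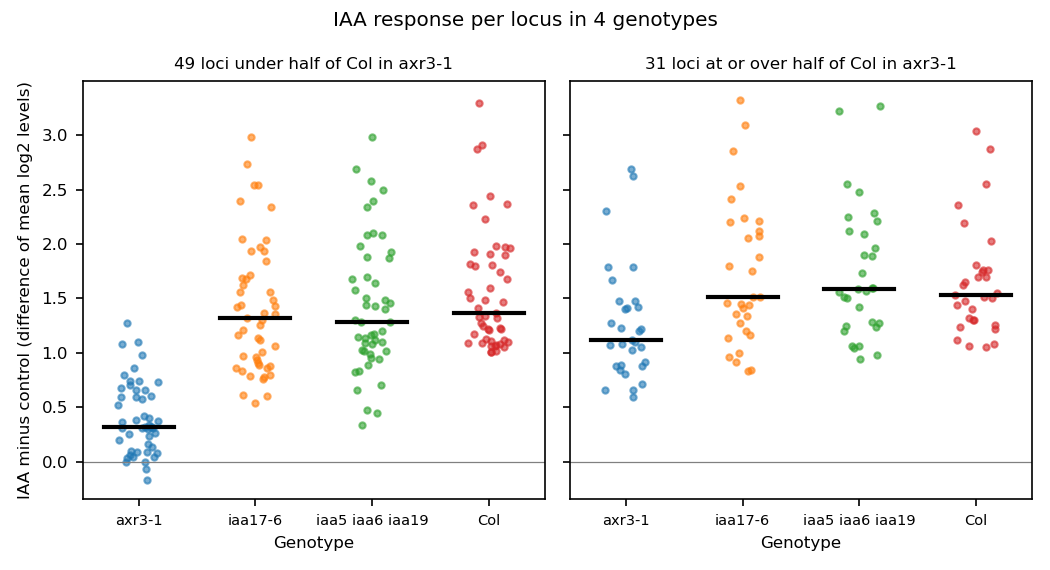
IAA minus control (difference of mean log2 levels, vertical axis) for each locus (points) in the 4 genotypes, with black bars at the medians. Among the 49 members (left) the axr3-1 median is 0.32, beside 1.32 in iaa17-6, 1.28 in iaa5 iaa6 iaa19 and 1.37 in Col, and among the 31 retained loci (right) it is 1.12, beside 1.51, 1.59 and 1.53. The Col and axr3-1 columns were used to choose both sets.

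The raised controls of axr3-1 were also set beside the other mutants. Over the 12 loci the median control level was 7.20 in iaa17-6 and 7.06 in iaa5 iaa6 iaa19, and with IAA it was 8.32 and 8.37. The control medians lay between the 8.07 of axr3-1 and the 6.52 of Col. Locus by locus, the control difference from Col had a median of only 0.33 in iaa17-6 (0.07 to 0.82). In iaa5 iaa6 iaa19 it was 0.14 (-0.25 to 2.20). It was at least 0.5 in 4 of the 12 in iaa17-6 and 2 in the triple mutant, against 11 in axr3-1. AT5G40590 read 6.24, 6.17 and 6.37 in iaa17-6 control and 5.64, 5.82 and 5.64 in triple-mutant control, close to Col. Its response was 2.40 in iaa17-6 (SE 0.18, adjusted p = 2.09e-08 by limma) and 2.58 in iaa5 iaa6 iaa19 (SE 0.18, adjusted p = 6.27e-09). AT4G33560 and AT4G22470 differed from this. AT4G33560 read 9.0, 9.05 and 8.67 in triple-mutant control and 7.09, 7.82 and 7.68 in iaa17-6 control, against 6.32, 7.12 and 6.69 in Col control, so the triple mutant shared the raised control. AT4G22470 read 8.03, 8.20 and 7.78 in triple-mutant control and 7.55, 7.72 and 7.21 in iaa17-6 control, against 6.76, 7.09 and 6.78 in Col control, with no overlap between either mutant and Col. Over all 49 members, control arrays lay wholly above those of Col in 9 loci in iaa17-6 (6.12% of all probe sets tested) and in 5 in iaa5 iaa6 iaa19 (5.13%), and wholly below in 0 in both (4.29% and 4.57%). The percentages among the members were 18.4 and 10.2. The rule favoured loci with low Col control values, which by itself places other controls above them. Nothing is therefore read from these counts.

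Treated mutants and treated Col were close for most members. Treated iaa17-6 arrays lay wholly above those of Col in 4 members and wholly below in 3 (5.71% and 6.04% of all probe sets tested). Treated iaa5 iaa6 iaa19 arrays lay wholly above in 8 and wholly below in 3 (6.88% and 9.25%). The median difference from Col with IAA was 0.03 in iaa17-6 (-0.64 to 0.66) and -0.02 in the triple mutant (-1.01 to 1.44).

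The 5 members that did not pass the threshold in at least 1 of the mutants were AT4G20830, AT3G54000, AT2G39210, AT4G33560 and AT4G22470. All 5 had higher means with IAA in both mutants. AT4G33560 and AT4G22470 have raised controls in axr3-1, and their responses were 0.54 (SE 0.44) and 0.61 (SE 0.22) in iaa17-6 and 0.45 and 0.47 in the triple mutant. AT4G33560 read 7.39, 8.11 and 8.70 with IAA in iaa17-6, against 7.09, 7.82 and 7.68 in control, a spread between replicates larger than the gap between treatments.

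AT3G54000 shows how the arrays that stood apart enter. It read 6.99, 6.79 and 5.64 with IAA in iaa17-6 and 5.64, 7.03 and 7.10 in iaa5 iaa6 iaa19, with all control arrays at the floor (adjusted p = 0.112 and 0.0664 by limma). The 2 readings at the floor came from iaa17-6 IAA replicate 3 and iaa5 iaa6 iaa19 IAA replicate 1, both among the 6 arrays, and axr3-1 IAA replicate 3 read the floor as well, beside 5.90 and 5.99. The Col arrays with IAA, none of which stood apart, read 6.90, 6.91 and 6.93. Without the 6 arrays AT3G54000 rose by 1.25 in iaa17-6 (adjusted p = 1.05e-07) and by 1.42 in the triple mutant (adjusted p = 3.16e-08), an alternative added after the data were seen. AT4G20830 was past the threshold in the triple mutant alone, by 1.02 (SE 0.31) at an adjusted p that rounds to 0.05. Its iaa17-6 response of 0.60 passed with replicate pairs blocked within genotype (adjusted p = 0.0261), as did that of AT2G39210, at 0.80 (adjusted p = 0.00196, against 0.12 without the block).

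**Figure D4:**
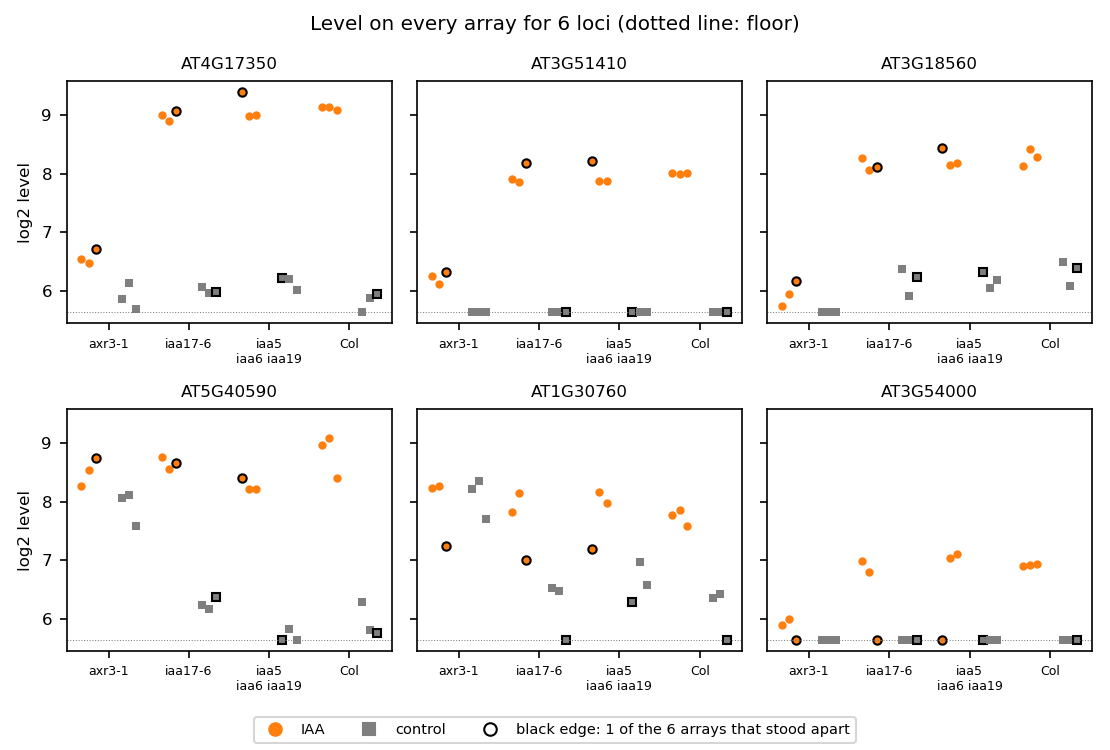
Log2 level (vertical axis) on all 24 arrays for 6 loci, with IAA as circles and control as squares, by genotype, the floor of 5.64 as a dotted line, and the 6 arrays that stood apart with black edges. AT4G17350, AT3G51410 and AT3G18560 are low in treated axr3-1, AT5G40590 and AT1G30760 are high in axr3-1 control, and the 3 treated arrays at the floor for AT3G54000 are all black-edged.

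Other members followed the same arrays. Against the mean of their group mates, the 6 arrays were lower by at least 0.5 on average for 6 members: AT1G30760 (-0.82), AT3G50340 (-0.81), AT4G20830 (-0.74), AT5G51670 (-0.71), AT2G39210 (-0.70) and AT1G67750 (-0.68). On each of these 6 loci, every one of the 6 arrays read below both of its group mates. The members' share of such loci was 12.2%, against 7.72% of all probe sets tested, and 1 member, AT2G39420, was higher by at least 0.5 (0.51), against 1.43% of all probe sets.

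The choice of members rests in part on these arrays, as they include a treated axr3-1 array and a Col control array. Without the 6, the rule again gave 49 loci, of which 41 were shared. AT3G50340, AT1G67750, AT5G51670 and AT3G26760 left because the axr3-1 difference came to 50.9% to 71.6% of that of Col. AT3G24240, AT1G34750, AT1G28680 and AT2G39210 left because the Col difference came to under 1. For AT3G50340, treated axr3-1 read 7.73, 7.80 and 6.54, with the low value from the array that stood apart, against 6.19, 6.23 and 6.34 in control. Without the 6 arrays its difference was 1.51 in axr3-1 and 2.11 in Col, so it was no longer under the limit. The median share of the Col difference over all 49 was 22.9% without the 6 arrays, beside 24.3% with them. When each Col and axr3-1 array was left out in turn, 32 members stayed in each time, and 31 stayed under all of these omissions.

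A few calls in the other mutants also depended on 1 array. In iaa17-6, AT3G24240 lost its call (adjusted p = 0.0522 to 0.0865) when control replicate 1 or 3 or IAA replicate 2 or 3 was left out, AT2G39420 without control replicate 1 or 2 or IAA replicate 3 (0.108 to 0.158), and AT1G30760 without control replicate 3 or IAA replicate 2 (0.0679 and 0.0779). In iaa5 iaa6 iaa19, AT1G30760 lost it without any array but IAA replicate 1, and AT4G35720 without any but IAA replicate 2. AT4G20830 lost it there without control replicate 1 or 2 or IAA replicate 2 or 3, AT1G34750 without control replicate 1 or 3 or IAA replicate 2 or 3, AT2G39420 without control replicate 3 or IAA replicate 1 or 3, and AT5G51670 without IAA replicate 3 (adjusted p = 0.051). Each kept its direction. AT4G35720 read 7.84, 7.19 and 6.76 with IAA in iaa17-6 and 6.99, 6.43 and 7.00 in the triple mutant, with the controls of both at the floor.

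The responses of iaa5 iaa6 iaa19 and iaa17-6 were then compared with each other. By limma, 0 of 49 members differed in response between them (0.0141% of all probe sets were higher and 0.0564% lower), and 2 had an unadjusted p under 0.05 (0.627% of all probe sets higher and 1.51% lower): AT5G67430, with a larger response in the triple mutant by 0.33, and AT3G61930, with a smaller one by 0.55. Of the 49 differences, 48 lay within 0.5 of 0. The 95% confidence interval of the difference reached 0.51 to either side at the median locus (0.25 to 1.31), and it lay within -1 to 1 for 38 members. These intervals are not adjusted for the number of probe sets tested, so a difference had to be larger than that to be called. Across the 49 loci the responses of the 2 mutants had a Pearson r of 0.92 and a Spearman rho of 0.86, as a description of loci measured on the same arrays and with the same floor.

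Levels also did not differ between these mutants past the threshold. In control, 0 members differed (0.0846% of all probe sets higher and 0.0775% lower), with 2 higher and 7 lower in the triple mutant at an unadjusted p under 0.05 (4.22% and 4.62% of all probe sets), and the lowest adjusted p was 0.191. With IAA, 0 differed (0.275% higher and 0.754% lower), with 3 higher and 6 lower at an unadjusted p under 0.05 (4.54% and 8.41% of all probe sets). The lowest adjusted p with IAA was 0.0638, of AT3G50900, which read 8.33, 8.45 and 8.41 in treated iaa5 iaa6 iaa19 and 8.84, 8.76 and 9.33 in treated iaa17-6. Its treated arrays did not overlap between the mutants, although the difference of -0.58 missed the threshold. With the replicate number as a block, 1 member passed with IAA.

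**Figure D5:**
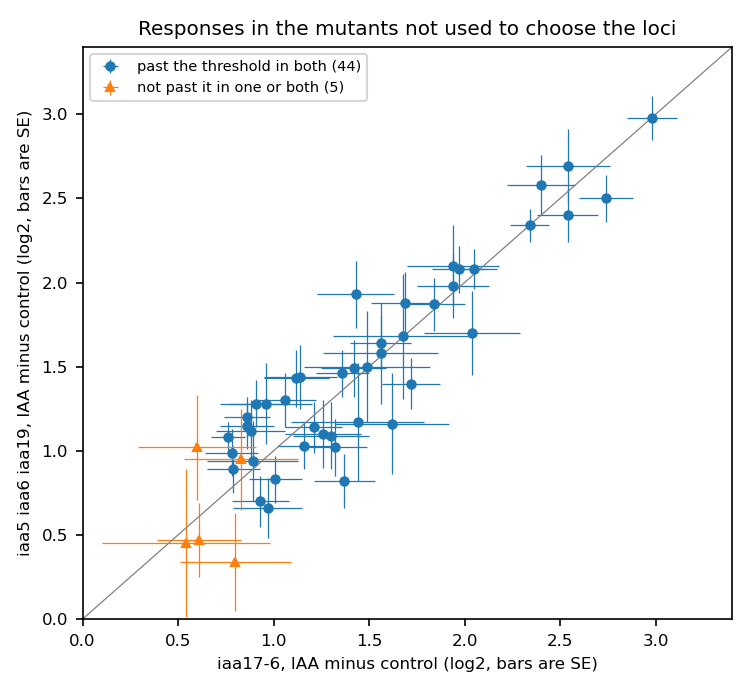
IAA response (log2, bars are SE from the fit) of each of the 49 loci in iaa5 iaa6 iaa19 (vertical axis) and iaa17-6 (horizontal axis), with the line of equal response. The 44 loci past the threshold in both (circles) run along the line up to 2.98 in each, and the 5 others (triangles) have wide bars or small responses, at most 1.02.

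The 31 retained loci, with an axr3-1 difference of 50.9% or more of that of Col, were set beside the members. Their median response was 1.12 in axr3-1, 1.51 in iaa17-6, 1.59 in iaa5 iaa6 iaa19 and 1.53 in Col. By limma 30 of 31 rose in iaa17-6 (4.41% of all probe sets) and 30 of 31 in the triple mutant (3.68%). A rise of at least 1 was called in 67.3% of the members and 83.9% of the retained loci in iaa17-6 (1.73% of all probe sets), and in 77.6% and 90.3% in the triple mutant (1.61%). The median share of the Col difference was 89.7% in the members and 108% in the retained loci in iaa17-6, and 91.6% and 99.2% in the triple mutant. These differences between the sets were not tested. The sets were split by a share of the same Col difference, and a high Col value lowers every share of it. Nothing is therefore read from the gap in shares. Treated axr3-1 arrays lay wholly below those of Col in 13 of the 31 (12.2% of all probe sets). The axr3-1 control arrays lay wholly above those of Col in 24.5% of the members and 22.6% of the retained loci (11.6% of all probe sets), and wholly below in 6.12% and 25.8% (9.63%). Nothing is read from these array counts, as both sets were chosen on the same arrays.

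The members lie on all 5 chromosomes, with 13, 8, 12, 8 and 8 loci on chromosomes 1 to 5, among 1707, 945, 1329, 921 and 1589 tested probe sets with a locus code alone. In RefSeq's gene order 1 pair lay within 10 genes of each other, AT5G40540 and AT5G40590, 5 genes apart. These neighbours differed in axr3-1. AT5G40540 read 6.51, 6.80 and 7.04 with IAA and 6.28, 6.40 and 6.54 in control, near the Col control of 6.22, 6.66 and 6.73, whereas AT5G40590 had the raised control given above.

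Auxin genes with a symbol, none of them members, were measured on the same arrays. Of 34 listed Aux/IAA genes 3 could be measured, IAA18, IAA29 and IAA30, and all 3 rose with IAA in iaa17-6 and in the triple mutant, 1 in axr3-1 and 2 in Col by limma. IAA29 rose from the floor in both, by at least 2.71 on the log2 scale in axr3-1 and at least 3.49 in Col. IAA30 lay at the floor on all axr3-1 arrays, so no axr3-1 difference can be given for it. Of 21 listed GH3 genes, whose products include enzymes that conjugate auxin to amino acids, 4 could be measured. Of these, 1 rose in axr3-1, 3 in iaa17-6, 3 in the triple mutant and 3 in Col. WES1 was higher with IAA by 1.81 in axr3-1 but missed the threshold (limma adjusted p = 0.0668). Over all probe sets, 1.79% rose in axr3-1 and 3.85% in Col.

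LBD16, LBD29 and PUCHI, transcription factors of lateral root formation, were the 3 of 6 listed genes of that group that could be measured. All 3 rose in iaa17-6, iaa5 iaa6 iaa19 and Col. The axr3-1 responses of LBD16 and LBD29 were smaller than in Col by 1.16 and 1.14 (limma adjusted p = 4.35e-07 and 0.00593), where 0.874% of all probe sets had a smaller response in axr3-1. All controls of LBD16 in both genotypes, and all but 1 of LBD29, lay at the floor, so these are differences of floored values. The lack of spread at the floor lowers their p-values, and the genes were listed with earlier results of these data known. PUCHI and GH3.1 lay at the floor on all axr3-1 arrays, like AT5G67430 and AT3G63240, beside rises of at least 0.93 and 2.1 in Col, and no axr3-1 difference can be given for them. HAT2, an auxin-induced homeodomain-leucine zipper gene, rose by 2.93 in axr3-1 (SE 0.13), against 3.00 in Col (SE 0.13).

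Among the cell type markers, the root hair genes were low in axr3-1, while the root gene PYK10 was not. The root hair genes EXPA7, EXPA18 and XTH26 (3 of 3 measured) lay at the floor on all 6 axr3-1 arrays, with a summed level of 16.93 with IAA and in control, against 20.12 to 22.09 with IAA and 19.96 to 21.77 in control in Col. The sums were 20.01 to 20.20 with IAA and 21.05 to 21.75 in control in iaa17-6. PYK10, an abundant root gene and 1 of 2 listed root markers measured, read 12.20 to 12.51 in axr3-1 and 12.25 to 12.63 in Col. Leaf and vasculature markers, 14 and 3 genes, could not be measured from the probe sets that name 1 gene. The part of these markers in the members' lower axr3-1 levels was not tested.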

How the data were processed

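Expression was measured on 24 Affymetrix ATH1 arrays, 3 for each of 8 groups, with groups and replicate numbers from the labels. The deposited values are log2 levels, 1 for each probe set on each array, a scale inferred from the values themselves. How the authors summarized and normalized them, and with which genome build, is not given in the sources used here. All values have a floor of 5.64, the log2 of 50 by inference, and a highest value of 13.16, with array medians of 5.941 to 6.064. The floor shrinks differences of dim genes, so differences from a group whose 3 arrays all read the floor are lower bounds, and folds are left out where both groups read it. A group at the floor on all 3 arrays also has no spread, which lowers the SEs and p-values of that probe set. The 64 control probe sets were left out, as were 8554 that read the floor throughout. In the platform annotation 13513 probe sets name 1 gene, 503 several, and 8730 are unnamed here. Arrays of the same group correlated at 0.9575 to 0.9957, and 0 pairs were identical.

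The 14192 remaining probe sets were fitted with limma 3.58.1 in R 4.3.3, as 8 group means with empirical Bayes moderation, a mean trend and 16 residual degrees of freedom. P-values are two-sided and adjusted by Benjamini-Hochberg over all probe sets tested, with a threshold of 0.05, and SEs come from this fit. The code was tested on simulated data. The number of arrays limits the precision: the median SE was 0.152 for a response and 0.215 for a difference of responses (0.171 and 0.242 over the members). Tests on the members are restricted to iaa17-6 and iaa5 iaa6 iaa19. The members and gene lists were chosen with earlier results of these data known.

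Named members follow a rule: the 10 with the largest Col difference, the 5 with the lowest axr3-1 share, the 5 with the largest axr3-1 minus Col difference in control, and those not past the threshold in at least 1 of the other mutants. Others were named after their values were seen, as examples. Same-numbered treated and control arrays deviated together from their group means across probe sets in some genotypes only. The correlations were 0.836, 0.582 and 0.633 in iaa5 iaa6 iaa19 and 0.162, 0.56 and 0.698 in iaa17-6. They were -0.052, -0.15 and 0.014 in axr3-1 and -0.075, 0.318 and 0.495 in Col. Both arrays of the pairs at 0.836 and 0.698 stood apart. The numbers were taken as pairs within genotypes only in an unplanned alternative fit. The main fit had no replicate block, so its p-values are unpaired. Between iaa5 iaa6 iaa19 and iaa17-6 the correlations were -0.123, 0.584 and -0.515 in control and -0.295, 0.518 and -0.596 with IAA, which gives no pairing. Alternatives were the filter, normalization, variance model, array weights, groups fitted, replicate blocks, omitted arrays and stricter member rules. Protein products and promoter sequences of the members were not analysed here. Gene order was taken from the RefSeq table of assembly TAIR10.1, for neighbours alone.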

Additional observations from a re-analysis of the deposited data

Results flagged for a closer look

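For 3 auxin genes that are not members, the IAA response differed between axr3-1 and Col by limma's test of the difference itself. LBD16 responded less in axr3-1 by 1.16 on the log2 scale (a difference of -1.16, SE 0.09, adjusted p = 4.35e-07). LBD29 differed by -1.14 (SE 0.21, adjusted p = 0.00593), and IAA29 by -0.78 (SE 0.12, adjusted p = 9.45e-04). The controls of LBD16 and IAA29 lay at the floor in both genotypes, as did all but 1 control of LBD29, so all 3 are differences of floored values. Groups at the floor have no spread, which lowers these SEs and p-values. The gene lists were also chosen with earlier results of these data known, so the p-values are not from an independent choice. All 3 stayed past the threshold under each alternative run, with adjusted p of 4.64e-08 to 6.71e-05 for LBD16, 0.000477 to 0.0226 for LBD29 and 6.82e-05 to 0.00836 for IAA29.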

How the results depend on the processing

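The iaa17-6 count of 44 members came to 26 when only its own groups were fitted, and to 42 to 44 without each array in turn. The iaa5 iaa6 iaa19 count of 45 came to 36 in its own groups and to 39 to 44 without each array. Fits to a mutant's own groups leave fewer degrees of freedom in both mutants, and the cause of the lower counts was not tested. With the replicate number as a block, the counts were 44 and 45, and with a replicate block within genotype 46 and 45. All 16 alternatives kept the direction of every called member, and 26 of the 44 and 34 of the 45 stayed past the threshold in each.

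The counts for iaa5 iaa6 iaa19 against iaa17-6, 0 in the main analysis, came to 3 in control and 4 with IAA under array weights. With IAA the replicate block gave 1, and leaving out 1 array gave 0 to 3 (1 without iaa17-6 IAA replicate 1 or iaa5 iaa6 iaa19 IAA replicate 1, 3 without iaa17-6 IAA replicate 2), against 0 to 0 in control. The cause was not tested. The count for the difference of responses stayed 0 in all.

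The median response moved with the rule: with a Col difference of at least 1.5 (20 members) it was 1.94 in iaa17-6 and 1.93 in the triple mutant, and with an axr3-1 share under 25% (27 members) 1.14 in each. Without the 6 arrays that stood apart, an alternative added after seeing the data, it was 1.26 in iaa17-6. Omitted arrays gave 1.29 to 1.33 in iaa17-6 and 1.22 to 1.37 in the triple mutant. The rule gave 46 members after quantile normalization, 44 after median centring, 48 to 64 without each Col and axr3-1 array (64 without Col control replicate 2) and 24 when a locus had to read above the floor on each of the 24 arrays, all added later.

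The near-zero axr3-1 minus Col difference of responses of HAT2 (-0.07) ran from -0.15 to 0.06 without each array in turn (0.06 without Col control replicate 3, 0.01 without axr3-1 IAA replicate 1) and was 0.01 without the 6 arrays, and that of IAA18 (-0.10) ran from -0.25 to 0.10 (0.03 without Col IAA replicate 1, 0.10 without axr3-1 control replicate 3). Those of GH3.3 (-1.39, adjusted p = 0.0525) and WES1 (-2.46, adjusted p = 0.111 by limma) passed the threshold under some alternatives: GH3.3 after quantile normalization (0.0365) and without Col control replicate 1 (0.0191), axr3-1 control replicate 2 (0.0114) or axr3-1 IAA replicate 2 (0.0466), and WES1 without axr3-1 IAA replicate 2 (0.0482).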
